A study of Mus musculus with 11 samples.

Results

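The genes described here are those of type I interferon and of the response to it: the cytokine Ifnb1, both chains of its receptor, the cytosolic RNA sensors and transcription factors of the pathway, and the genes that interferon induces. They were taken from a list of 43 gene names, of which Mx1 and Mx2 have no row in the count tables, so that 41 of the 32285 genes measured were followed. By role, 3 are the cytokine and its receptor chains, 9 are RNA sensors and signal transducers, 18 are antiviral effectors and negative regulators, and 11 are other interferon-stimulated genes. The members were chosen by gene name with earlier results of these data known, and Ifnb1 and Ifih1 in microglia were selected on their UMI levels there. Those levels are therefore given as a description, without a test.

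Right brain tissue was measured by single-cell RNA sequencing, with libraries prepared with a 10x Genomics 3′ kit, 1 library per mouse. They answer how loss of Lrg1, which encodes a secreted leucine-rich glycoprotein, changes brain cells after ischemia and reperfusion. Wild-type mice (WT; male C57BL/6, 8 to 10 weeks old) and Lrg1-/- mice underwent sham surgery or middle cerebral artery occlusion with reperfusion (MCAO/R), a filament model of stroke. The Lrg1-/- line is a conventional knockout that lacks Lrg1 in every cell, was crossed to C57BL/6N and is given as 3 months old. The labels and methods do not tie the sequenced mice to a reperfusion time. Several reperfusion times, the longest a day, are listed in the methods of the study, and its discussion mentions 1 hour without naming samples. The groups are sham + WT (3 mice, replicates 1, 2 and 3), sham + Lrg1-/- (3 mice, replicates 1, 2 and 5), MCAO/R + WT (2 mice, replicates 1 and 2) and MCAO/R + Lrg1-/- (3 mice, replicates 1, 2 and 5), and values are listed in that order of replicates.

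Cells make interferon beta when sensors such as MDA5 (Ifih1) and RIG-I (Ddx58) bind viral or misplaced RNA in the cytosol and activate IRF and NF-kappaB transcription factors. The interferon binds the Ifnar1 and Ifnar2 receptor pair, and transcription factors that include STAT2 and IRF9 then switch on genes that carry an interferon-stimulated response element (ISRE) near their start. Microglia, the resident macrophages of the brain, and endothelial cells of its vessels both respond to type I interferon.

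Promoters of 6 members are shown because they carry the 2 elements just named and because these genes moved in different ways below. Each is the 250 bases before the start of the gene in the RefSeq annotation of GRCm38.p6, on the strand of the gene. Capitals mark, on either strand, the NF-kappaB motif (GGGA, any 2 bases, then TTCC) in Ifnb1 and the ISRE core (GAAA, any 2 bases, then GAAA again) in the others, where overlapping matches run together. These are Ifnb1 (chr4:88522795-88523044, minus strand), Isg15 (chr4:156200819-156201068, minus), Ifit1 (chr19:34640639-34640888, plus), Trim26 (chr17:36836896-36837145, plus), Bst2 (chr8:71537473-71537722, minus) and Ifi211 (chr1:173913047-173913296, minus).
Ifnb1: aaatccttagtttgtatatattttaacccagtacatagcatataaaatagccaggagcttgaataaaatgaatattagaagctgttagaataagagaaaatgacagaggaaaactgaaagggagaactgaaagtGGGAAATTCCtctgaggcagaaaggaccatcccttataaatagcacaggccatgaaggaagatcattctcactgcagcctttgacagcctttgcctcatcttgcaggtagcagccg
Isg15: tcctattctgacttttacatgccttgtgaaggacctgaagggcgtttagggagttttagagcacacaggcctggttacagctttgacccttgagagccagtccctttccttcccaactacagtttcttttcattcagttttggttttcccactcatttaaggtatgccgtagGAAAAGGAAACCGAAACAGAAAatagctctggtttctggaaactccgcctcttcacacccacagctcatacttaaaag
Ifit1: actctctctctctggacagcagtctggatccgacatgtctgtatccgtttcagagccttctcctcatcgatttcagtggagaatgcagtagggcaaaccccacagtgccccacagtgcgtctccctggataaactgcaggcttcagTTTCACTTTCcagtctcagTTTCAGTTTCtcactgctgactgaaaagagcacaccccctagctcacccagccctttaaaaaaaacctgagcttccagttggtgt
Trim26: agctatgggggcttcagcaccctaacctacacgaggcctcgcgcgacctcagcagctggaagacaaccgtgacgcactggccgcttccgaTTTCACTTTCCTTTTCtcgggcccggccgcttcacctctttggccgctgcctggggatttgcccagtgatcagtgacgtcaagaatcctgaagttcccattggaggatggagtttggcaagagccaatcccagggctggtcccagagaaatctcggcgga
Bst2: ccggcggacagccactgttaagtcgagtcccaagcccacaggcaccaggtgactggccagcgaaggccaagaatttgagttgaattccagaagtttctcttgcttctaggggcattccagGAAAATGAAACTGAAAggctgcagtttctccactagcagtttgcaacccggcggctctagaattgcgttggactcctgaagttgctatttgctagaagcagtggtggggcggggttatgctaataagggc
Ifi211: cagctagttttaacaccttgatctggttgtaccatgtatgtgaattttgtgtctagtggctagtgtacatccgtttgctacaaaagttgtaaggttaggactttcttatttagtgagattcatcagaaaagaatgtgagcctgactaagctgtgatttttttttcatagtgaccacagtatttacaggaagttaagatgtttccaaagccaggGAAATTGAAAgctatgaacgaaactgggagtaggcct
Isg15 holds 3 overlapping cores between 57 and 78 bases before its start, Trim26 holds 2 overlapping cores between 145 and 160 bases, Bst2 holds 2 between 115 and 130 bases, and Ifit1 holds 2 separate cores between 76 and 104 bases. Ifi211 holds a single core between 28 and 37 bases before its start. A promoter was found for 33 of the 41 members. The ISRE core lay in 14 of these 33 members (42.4%) and in 936 of all 27025 genes (3.46%), and the NF-kappaB motif lay in 4 members (12.1%), Ifnb1, Isg20, Ifitm3 and Ifit2, and in 368 genes (1.36%). Dhx58, Zbp1, Usp18, Oas2, Rtp4, Ifi27l2a, Parp14 and Ifi204 had no entry. A match says only that these letters are there.

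The libraries held 37159497 to 171813031 UMIs (unique molecular identifiers, 1 per captured RNA molecule) and 3054 to 32130 cells after filtering, with a median of 3102 to 7440 UMIs per cell in Lrg1-/- libraries and 6101 to 11207 in WT libraries. Lrg1 itself had 192, 658 and 276 UMIs in the sham + WT libraries and 17799 and 16183 in the MCAO/R + WT libraries, against 0 or 1 in each Lrg1-/- library. Haemoglobin transcripts took 4.35 to 10.05% of UMIs in Lrg1-/- libraries and 0.0236 to 0.0451% in WT libraries, so that genotype and the preparation of the cells cannot be told apart. Any 2 libraries shared 5 to 146 cell barcodes, at most 1.15% of the smaller one. All 10 microglial markers were higher in the 30492 cells named microglia than in all other cells, and all 9 endothelial markers in the 17035 cells named endothelial. In all, 30016 cells stayed without a name and entered no test, 16760 of them from replicate 5 of MCAO/R + Lrg1-/-, and they included clusters with the markers of 2 cell types at once. Levels below are UMIs of all cells of a type in a library per 1000000 UMIs of that type (CPM), scaled by TMM normalization. A gene was called where edgeR's quasi-likelihood test gave a p under 0.05 after Benjamini-Hochberg adjustment over all genes and the natural log of the fold change exceeded 0.25 in size.

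Ifnb1 was highest in microglia of WT mice. Its microglial level was 323, 422 and 299 CPM in the sham + WT mice (348 ± 64.9, mean ± SD, n = 3) and 121 and 55.4 CPM in the MCAO/R + WT mice. In the sham + Lrg1-/- mice it was 0.466, 0.2 and 0.769 CPM, from 3, 1 and 2 UMIs, and in the MCAO/R + Lrg1-/- mice it was 3.04, 5.25 and 1.96 CPM, from 15, 182 and 71 UMIs. Both WT groups lay above both Lrg1-/- groups without overlap, and sham + WT was the highest. The MCAO/R + Lrg1-/- values lay above those of sham + Lrg1-/- but came from few cells. In replicate 1 of MCAO/R + Lrg1-/- a single cell held 13 of the 15 UMIs. The highest cell of replicates 2 and 5 held 28 and 30 UMIs, so that nothing is read from the order of the 2 Lrg1-/- groups. Of the other type I interferon genes, 17 had a row, 7 of these had no UMI in any named cell type, and together they had 240 UMIs, 134 of them from Ifna2.

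Ifih1, the sensor MDA5, had the same order of the genotypes. Its microglial level was 2015, 2655 and 2305 CPM in the sham + WT mice (2325 ± 321, SD, n = 3) and 836 and 973 CPM in the MCAO/R + WT mice. It was 48.3, 44.1 and 29.2 CPM in the sham + Lrg1-/- mice and 65.6, 49.6 and 40.6 CPM in the MCAO/R + Lrg1-/- mice. Every WT library was at 836 CPM or more and every Lrg1-/- library at 65.6 CPM or less, and the 2 Lrg1-/- groups overlapped. The plot of Ifnb1 and Ifih1 shows each library.

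**Figure D1:**
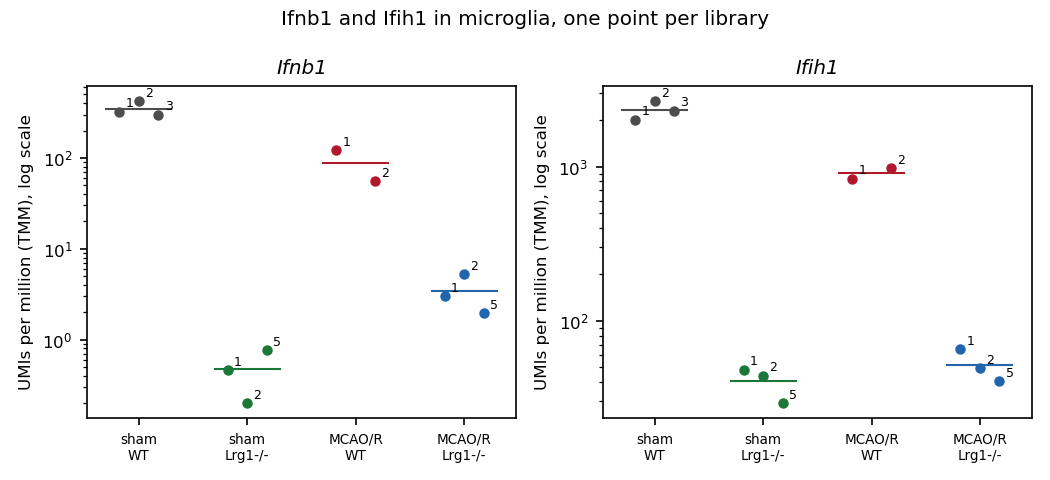
Ifnb1 and Ifih1 in microglia, in CPM on a log axis; each point is 1 library with its replicate number and the line is the group mean. The WT libraries sit at 55.4 to 422 CPM for Ifnb1 and at 836 CPM or more for Ifih1, and all Lrg1-/- libraries lie lower.

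The share of microglia with at least 1 Ifnb1 UMI was 49.7% (95% Wilson interval 48.3 to 51.2%), 61.5% and 54.7% in the sham + WT libraries, 20.6% and 12.8% in the MCAO/R + WT libraries, and 0.147 to 1.20% in the 6 Lrg1-/- libraries. The interval covers counting error only. With every cell thinned to 1000 UMIs the shares were 21.3%, 25.04% and 19.9%, then 6.35% and 4.06%, and at most 0.400%. Oligodendrocytes, which are not known as a source of Ifnb1, gave shares of 15.5%, 20.9% and 18.3% in sham + WT, and of 1.58%, 2.11% and 1.45% after thinning. Median depth there was 8400 to 10340.5 UMIs per microglial cell and 11156 to 16199 UMIs per oligodendrocyte. The Ifnb1 UMIs were spread over many cells in the sham + WT libraries, where the highest 1% of microglia held 9.18 to 12.3% of them and no cell had more than 64. In the MCAO/R + WT libraries the highest 1% held 32.5% and 35.7%, and 1 cell had 115.

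Ifih1 UMIs were found in 81.6%, 86.4% and 85.7% of sham + WT microglia and in 64.6% and 61.5% of MCAO/R + WT microglia. The shares were 14.99%, 13.6% and 15.6% in sham + Lrg1-/- and 36.0%, 25.4% and 16.7% in MCAO/R + Lrg1-/-. Thinned to 1000 UMIs, they were 59.3%, 63.8% and 61.3% in sham + WT and 2.38 to 4.36% in sham + Lrg1-/-, against 7.57%, 3.68% and 2.91% in sham + WT oligodendrocytes. In the 6 Lrg1-/- libraries the thinned microglial shares, 2.38 to 5.20%, were each above the share in oligodendrocytes of the same library, 0.592 to 1.22%, although the 95% intervals of the pair overlapped in replicates 2 and 5 of sham + Lrg1-/- and in replicate 1 of MCAO/R + Lrg1-/-.

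As medians over the sham + WT libraries, other cell types had Ifnb1 at 4.21 to 17.1% of the microglial level, while the median of the microglial markers was at 2.98 to 21.9%, and the upper end of both ranges comes from 1 library with 21 neutrophils. In single libraries Ifnb1 ran from 3.85% in neurons and neuroblasts to 25.2% in monocytes. Whether those UMIs come from the other cells or from free microglial RNA was not tested. Ifnb1 and Ifih1 were also lower in sham + Lrg1-/- than in sham + WT in the 10 other cell types tested with those groups. Since both genes were selected on that difference in microglia, these values are given without a test and are not separate evidence. In endothelial cells Ifnb1 was 17.3, 17.8 and 13.4 CPM in sham + WT and 0.214, 0.0942 and 0 CPM in sham + Lrg1-/-, and in astrocytes it was 43.8, 28.4 and 40.0 CPM against 0, 0 and 0 CPM. Ifih1 in astrocytes was 243, 178 and 307 CPM in sham + WT and 9.94, 32.1 and 23.2 CPM in sham + Lrg1-/-. In endothelial cells the groups lay closer for Ifih1, at 118, 123 and 109 CPM against 79.3, 77.6 and 57.2 CPM, and did not overlap.

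Both receptor chains fell in endothelial cells after MCAO/R in either genotype, and neither fell in microglia. Microglial Ifnar1 was 26.0, 27.9 and 25.6 CPM in sham + WT and 36.3, 43.5 and 43.4 CPM in sham + Lrg1-/-, without overlap, and was called higher in the knockout (0.63 ± 0.17 on the log2 scale, SE, edgeR adjusted p = 0.021). The call was lost without replicate 1 or 3 of sham + WT or replicate 2 or 5 of sham + Lrg1-/-. Ifnar2 was 169, 196 and 177 CPM in sham + Lrg1-/- and 219, 292 and 255 CPM in MCAO/R + Lrg1-/- microglia and rose after MCAO/R by 0.50 ± 0.13 (log2, SE, adjusted p = 0.0094), while in WT it was 205 to 219 CPM and 237 and 188 CPM. Endothelial Ifnar1 was 170.2 to 202 CPM in sham + WT and 88.6 and 98.0 CPM in MCAO/R + WT, and endothelial Ifnar2 was 336 to 348 CPM and 187 and 189.8 CPM. On the log2 scale these changes were -1.001 ± 0.11 (edgeR adjusted p = 5.1e-05) and -0.86 ± 0.09 (adjusted p = 3.9e-05). In Lrg1-/- endothelial cells they were -0.89 ± 0.10 (adjusted p = 1.5e-04) and -0.41 ± 0.08 (adjusted p = 0.0038).

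In WT microglia MCAO/R split the members. Of the 39 members tested there, 12 were called higher and 7 lower after MCAO/R; among all genes 11.7% were called higher and 9.84% lower. The members' median log2 fold change was 0.39, against 0.05 over all genes tested. The 7 that fell were 4 effectors, 2 sensors and transducers and Parp14. Herc6, an effector that attaches ISG15 to proteins in the mouse, was 306, 329 and 318 CPM in sham + WT and 62.6 and 85.8 CPM in MCAO/R + WT (-2.10 ± 0.22, SE, edgeR adjusted p = 3.0e-05). Trim26, a ubiquitin ligase of antiviral signalling, was 448, 437 and 449 CPM and 103 and 147 CPM (-1.83 ± 0.16, adjusted p = 6.2e-06). Both MCAO/R + WT mice lay below all 3 sham + WT mice for these genes and for Ddx58 (-1.75 ± 0.23), the sensor RIG-I, Ifit1 (-1.64 ± 0.40), Ifit2 (-1.51 ± 0.49), whose products bind foreign RNA, Parp14 (-1.27 ± 0.16) and Isg15 (-0.83 ± 0.28), a ubiquitin-like protein attached to other proteins.

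The members that rose in WT microglia rested largely on replicate 1 of MCAO/R + WT. Ifi211, a DNA-binding protein of the p200 family, was 0.449, 0.411 and 0.247 CPM in sham + WT and 55.5 and 0.543 CPM in MCAO/R + WT (6.22 ± 1.17, SE, edgeR adjusted p = 0.0022). Zbp1, a sensor of Z-form nucleic acids, was 1.53, 1.98 and 1.87 CPM and 33.7 and 3.01 CPM (3.36 ± 0.64, adjusted p = 0.0024), and Ifitm3, which blocks viral entry, was 32.3, 39.7 and 43.0 CPM and 337 and 44.6 CPM (2.32 ± 0.55, adjusted p = 0.0088). For each of the 3 genes replicate 1 was far above the sham + WT mice and replicate 2 was close to them.

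Ifi204, a relative of Ifi211, and Slfn2, a Schlafen family gene, were raised in both MCAO/R + WT mice. Ifi204 was 22.5, 27.0 and 21.8 CPM in sham + WT and 200.1 and 89.0 CPM in MCAO/R + WT (2.61 ± 0.25, SE, edgeR adjusted p = 1.6e-05), and Slfn2 was 32.9, 35.8 and 33.3 CPM and 232 and 96.0 CPM (2.27 ± 0.28, adjusted p = 9.5e-05). Bst2 (1.45 ± 0.44), Usp18 (1.51 ± 0.47), Slfn5 (1.56 ± 0.43), Gbp2 (1.22 ± 0.23) and Ifi35 (0.83 ± 0.20) were also called, although replicate 2 lay within or below the sham + WT range for Bst2 and Usp18. Oas2 and Oas3, which make the second messenger that activates RNase L, reached only 4.77 CPM and 1.11 CPM. No sham + WT library passed the filter on low counts for Oas3, so that nothing is read from its test, and 11 members were higher without it. Without replicate 1 of MCAO/R + WT, Ifi211 was at 0.55, Ifitm3 at 0.22 and Zbp1 at 0.75 on the log2 scale. Leaving out either MCAO/R + WT mouse leaves 1 in its group, so that no count is read from those fits.

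Irf7, the amplifier of the interferon response, was 25.8, 26.0 and 22.1 CPM in sham + WT and 66.9 and 8.86 CPM in MCAO/R + WT microglia, on either side of the sham range, and was not called (0.62 ± 0.52, adjusted p = 0.45). Irf9 (0.10 ± 0.18), Stat2 (-0.29 ± 0.19), Ifit3 (0.07 ± 0.56) and Ifi27l2a (1.62 ± 0.62) were not called either in this comparison.

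In Lrg1-/- microglia the members that were called all rose after MCAO/R. This did not hold when a cluster led by Spp1, described below, was left out: members were then called in both directions and Isg15 was not called. Of 39 members, 18 were called higher and 0 lower, where all genes had 21.1% higher and 14.9% lower; the members' median log2 fold change was 1.16, against 0.04 over all genes. Effectors led, with 11 of 18 higher, and 2 of 8 sensors and transducers, 4 of 11 other interferon-stimulated genes and Ifnar2 made up the rest. Isg15 was 16.5, 17.6 and 19.6 CPM in sham + Lrg1-/- and 84.0, 63.1 and 38.1 CPM in MCAO/R + Lrg1-/- (1.78 ± 0.28, SE, edgeR adjusted p = 3.3e-04). Ifit3 was 3.88, 8.19 and 4.61 CPM and 73.1, 39.8 and 24.5 CPM (2.995 ± 0.65, adjusted p = 0.0029), and Rsad2 (viperin) was 5.74, 5.59 and 8.45 CPM and 98.0, 41.1 and 31.4 CPM (3.13 ± 0.80, adjusted p = 0.0077). All 3 MCAO/R mice lay above all 3 sham mice for these genes. Replicate 1 of MCAO/R + Lrg1-/- was the highest for each and had only 250 microglia. Its highest 1% of microglia held 34.6% of the UMIs of the 18 effectors. That share was 16.6% and 21.0% in replicates 2 and 5 and 14.5 to 17.0% in sham + Lrg1-/-. Different clusters held most microglia of each group. In sham + Lrg1-/-, 1497 microglia lay in a cluster (number 2) with P2ry12 among its leading genes, against 192 in MCAO/R + Lrg1-/-. Leading genes were taken over the cells of all groups together. They include Ifih1 and Ifnb1 for this cluster, although its sham + Lrg1-/- cells had Ifnb1 at 0.238, 0 and 0 CPM. A cluster with Nlrp3 among its leading genes (number 1) held 292 and 4975 in these groups. In WT, clusters 2 and 11, both with Ifih1 and Ifnb1 among their leading genes, held 6615 and 4376 sham microglia and 2413 and 96 MCAO/R microglia, while cluster 1 held 1238 and 4345.

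Oasl1 (2.62 ± 0.45), Slfn2 (2.57 ± 0.28), Ifit1 (2.43 ± 0.51), Ifit2 (2.18 ± 0.58), Zbp1 (2.10 ± 0.70), Ifitm3 (1.64 ± 0.52) and Bst2 (1.42 ± 0.42), which tethers budding virus to the cell, rose likewise. Ifi211 was 0.621, 1.20 and 1.15 CPM in sham and 36.0, 21.3 and 12.98 CPM after MCAO/R (4.60 ± 1.36, adjusted p = 0.018). Its sham values rest on few UMIs, so that the size of this change is uncertain. Ifi204 rose by 1.63 ± 0.24. There were 10 members higher and 0 lower at 1000 UMIs per cell, and 5 higher and 2 lower when haemoglobin, mitochondrial and ribosomal genes were left out of clustering, which also left the Spp1-high cluster described below without a name. The count of 18 fell to 8 without replicate 1 of sham + Lrg1-/-, to 9 without its replicate 2 and to 10 without replicate 2 of MCAO/R + Lrg1-/-, with 0 lower each time. Without replicate 1 of MCAO/R + Lrg1-/- it was 14 higher and 2 lower. The shares of all genes called in these alternative fits are not given, so that these counts cannot be set against genes at large. Irf7 (0.997 ± 0.57, adjusted p = 0.19), Irf9 (0.18 ± 0.17), Stat2 (0.19 ± 0.20) and Ifi27l2a (0.56 ± 0.59) were not called.

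Between the sham groups, many effectors were much lower in Lrg1-/- microglia. Of 39 members, 13 were called lower and 1 higher, where 12.3% of all genes were lower and 10.7% higher; the members' median was -0.14 and that of all genes -0.03, since members without a call lay on both sides of 0. The 13 comprised 9 of 18 effectors (Ifit1, Ifit2, Ifit3, Ifit3b, Isg15, Oasl1, Oasl2, Herc6 and Rtp4), 3 of 8 sensors and transducers (Ddx58, Stat2 and Trim26) and Parp14, a member of the ADP-ribosyltransferase family. The 1 called higher was Ifnar1.

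Ifit1 was 142, 151 and 123 CPM in sham + WT and 2.17, 3.59 and 3.46 CPM in sham + Lrg1-/-, 46.9-fold lower (-5.55 ± 0.49 on the log2 scale, SE, edgeR adjusted p = 1.2e-05). Isg15 was 308, 320.3 and 259.6 CPM and 16.5, 17.6 and 19.6 CPM, 16.7-fold lower (-4.06 ± 0.29, adjusted p = 1.6e-06), and Herc6 was 306, 329 and 318 CPM and 19.4, 25.6 and 30.0 CPM, 12.96-fold lower (-3.70 ± 0.21, adjusted p = 2.4e-07). Trim26 was 448, 437 and 449 CPM and 46.6, 48.1 and 41.1 CPM, 9.78-fold lower (-3.29 ± 0.15, adjusted p = 4.3e-08). For all 4 genes every Lrg1-/- mouse lay far below every WT mouse and the spread within each group was small.

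Ifit2 (-5.54 ± 0.58), Oasl1 (-5.16 ± 0.45), Parp14 (-2.94 ± 0.15), Ddx58 (-2.14 ± 0.22), Ifit3 (-2.49 ± 0.65) and Stat2 (-0.85 ± 0.19), a transcription factor of the interferon response, fell as well. Other members did not follow: Bst2 was 88.5, 86.3 and 81.9 CPM in sham + WT and 77.8, 74.7 and 83.4 CPM in sham + Lrg1-/- (-0.12 ± 0.41), Ifitm3 was 32.3, 39.7 and 43.0 CPM and 53.5, 61.1 and 69.9 CPM (0.67 ± 0.51), and neither was called. Irf7 (-1.41 ± 0.56, adjusted p = 0.088), Irf9 (-0.50 ± 0.17, adjusted p = 0.051), Ifnar2 (-0.23 ± 0.13) and Ifi27l2a (0.78 ± 0.59) also missed the threshold. Of the 11 members lower in the knockout that had a promoter entry, 6 held the ISRE core, as did 8 of the other 20 when Ifnb1 and Ifih1 are set aside.

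Other transcripts moved with the genotype in the same microglial sums. The summed level of 4 haemoglobin genes was 18.6 to 23.2 CPM in sham + WT and 10154 to 28886 CPM in sham + Lrg1-/-, that of 4 choroid plexus genes was 338 to 587 CPM and 2810 to 3609 CPM, and that of 10 immediate early genes was 40727 to 43850 CPM and 18076 to 22521 CPM. Their part in the differences above was not tested. Leaving out any 1 library left 10 to 17 members lower and 0 to 4 higher, and the shares of all genes in those fits are not given.

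After MCAO/R, the members called in microglia were again lower in Lrg1-/- mice. Of 39 members, 9 were called lower in MCAO/R + Lrg1-/- than in MCAO/R + WT and 0 higher, where 10.2% of all genes were lower and 10.3% higher, with a median of -0.32 against 0.09 over all genes. Oasl1 was 267 and 83.5 CPM in MCAO/R + WT and 30.0, 24.3 and 24.96 CPM in MCAO/R + Lrg1-/- (-2.75 ± 0.37, SE, edgeR adjusted p = 3.4e-04), and Herc6 was 62.6 and 85.8 CPM and 26.1, 18.3 and 15.6 CPM (-1.93 ± 0.21, adjusted p = 7.0e-05). Isg15 was 211 and 122 CPM and 84.0, 63.1 and 38.1 CPM (-1.45 ± 0.27, adjusted p = 0.0027). In each case the groups did not overlap.

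Trim26 (-1.08 ± 0.15), Parp14 (-1.43 ± 0.15), Ddx58 (-0.74 ± 0.22), Ifit1 (-1.48 ± 0.39), Ifit2 (-1.85 ± 0.48) and the GTPase Gbp2 (-0.997 ± 0.23) were the others called. Bst2 was not called, and its MCAO/R + Lrg1-/- mice lay between the 2 MCAO/R + WT mice, at 392 and 74.1 CPM in WT and 209, 269.9 and 152 CPM in Lrg1-/- (-0.15 ± 0.44). Ifitm3 (-0.00 ± 0.55), Ifit3 (0.43 ± 0.57), Irf7 (-1.03 ± 0.53), Irf9 (-0.41 ± 0.18), Stat2 (-0.38 ± 0.20), Ifnar1 (0.47 ± 0.19), Ifnar2 (0.26 ± 0.15) and Ifi27l2a (-0.27 ± 0.62) were not called. The result depended on which WT mouse it was read against. Leaving out either leaves 1 mouse in MCAO/R + WT, so that no count is read from those fits. Without replicate 1 of MCAO/R + WT the values of Ifitm3, Bst2, Irf7 and Ifi27l2a turned positive.

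**Figure D2:**
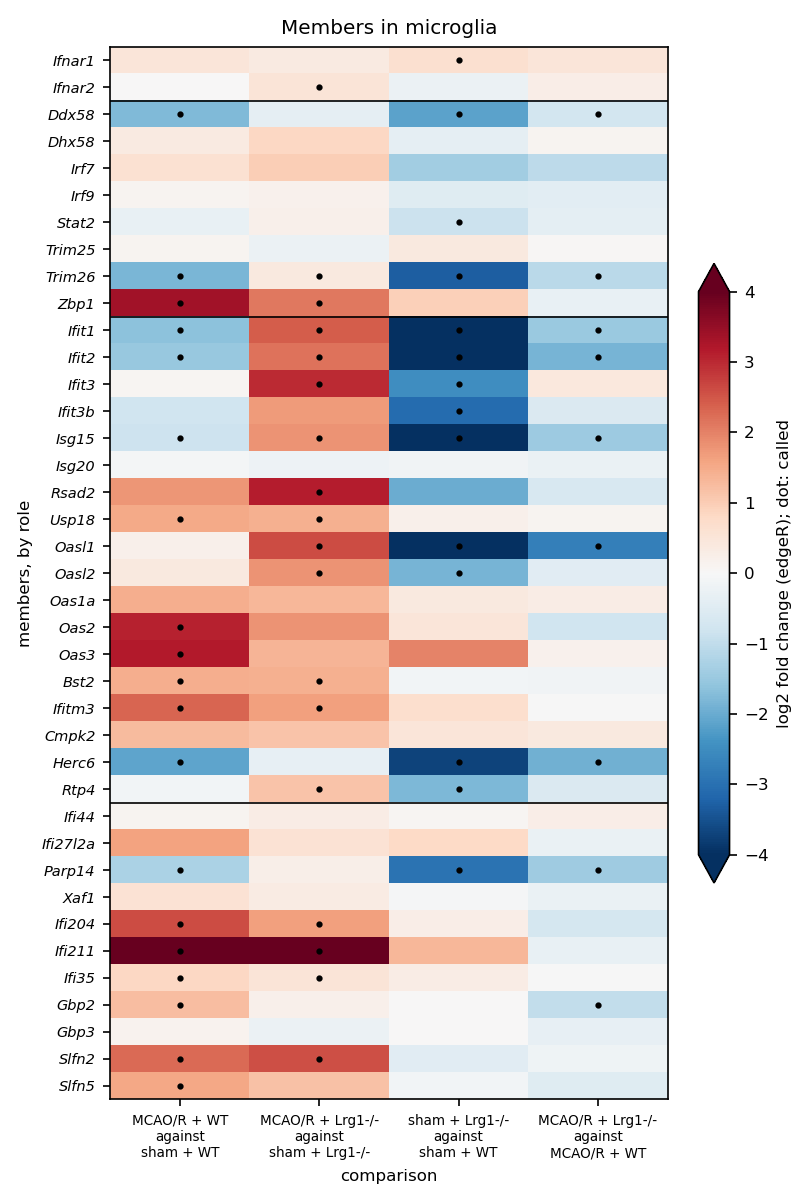
Log2 fold change of each member in microglia in the 4 comparisons (columns), by edgeR; colour saturates at 4 in either direction, a dot marks a call and lines separate the roles. Of 39 members, 12, 18, 1 and 0 were called higher and 7, 0, 13 and 9 lower; the 12 include Oas3, from whose test nothing is read.

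The test of the interaction asked whether the change after MCAO/R differed between genotypes. Of 39 members in microglia, 8 were called positive and 0 negative, where 5.49% of all genes were positive and 3.54% negative; the members' median was 0.08 and that of all genes 0.03. The 8 were Ifit1 (4.07 ± 0.65, log2, SE, edgeR adjusted p = 0.0058), Ifit2 (3.69 ± 0.76), Isg15 (2.61 ± 0.39), Oasl1 (2.41 ± 0.59), Trim26 (2.21 ± 0.21), Herc6 (1.76 ± 0.29), Parp14 (1.51 ± 0.21) and Ddx58 (1.40 ± 0.32). Their WT level fell after MCAO/R or, for Oasl1, was not called (0.21 ± 0.36), and their sham + Lrg1-/- level was already low. In endothelial cells the interaction gave 0 calls among 40 members by edgeR, with 5 at an unadjusted p under 0.05, where 2.77% of all genes were called in either direction. There 35 of the 40 members had a positive value and the median was 0.49, against 0.003 over all genes. Over both cell types DESeq2 called 12 members, 10 of them positive, in place of 8. Over both cell types, edgeR called 6 to 10 without any 1 of the libraries outside MCAO/R + WT. For DESeq2 and for these fits the shares of all genes called are not given. Leaving out either MCAO/R + WT mouse leaves 1 in its group and moved the count, so that no count is read from those fits.

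**Figure D3:**
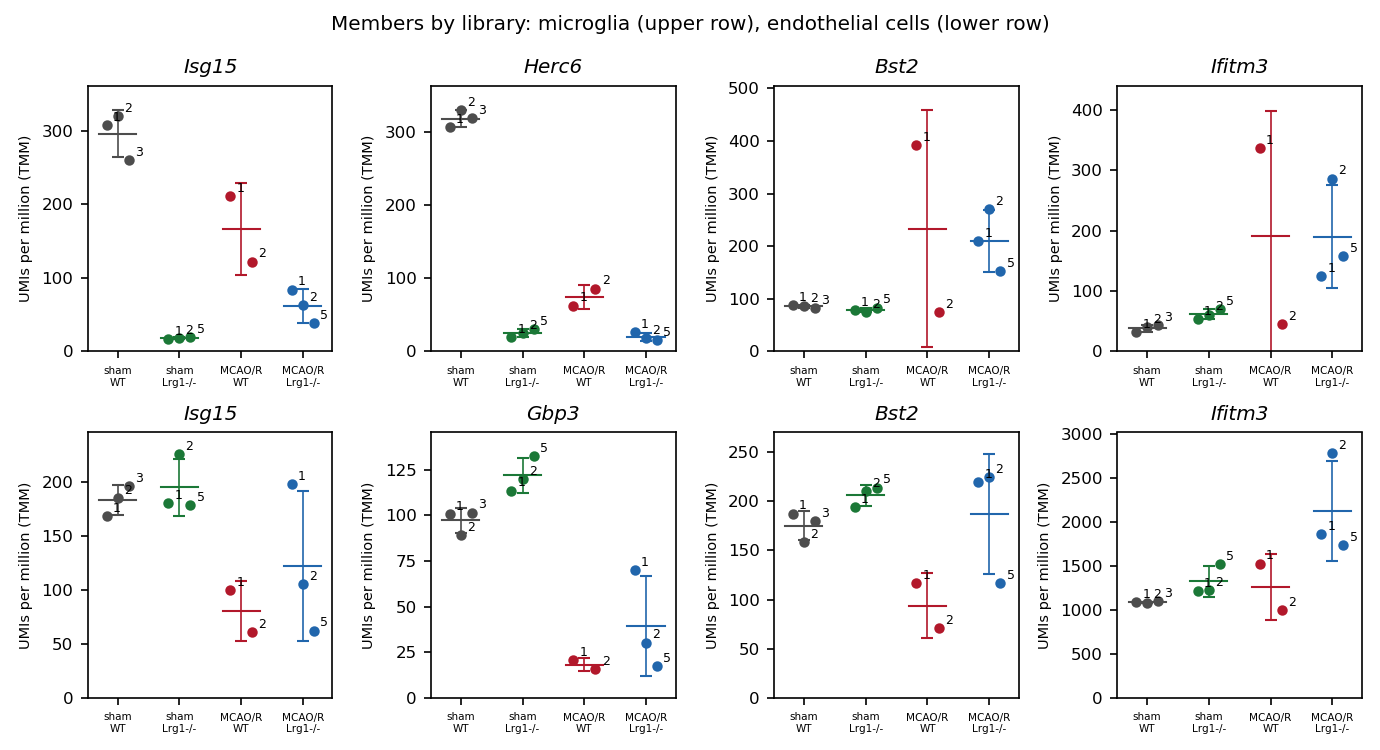
CPM per library of 4 members in microglia (Isg15, Herc6, Bst2 and Ifitm3) and 4 in endothelial cells (Isg15, Gbp3, Bst2 and Ifitm3); points are libraries with their replicate numbers and lines and bars are the mean and SD, cut at 0. Microglial Isg15 is 259.6 to 320.3 CPM in sham + WT and 16.5 to 19.6 CPM in sham + Lrg1-/-, while microglial Bst2 has its highest value in replicate 1 of MCAO/R + WT.

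Microglia included a cluster with Lilr4b, Ifi207, an interferon-inducible relative of Ifi204, and Spp1, a marker of phagocytic microglia, as its leading genes (the Spp1-high cluster), that had few cells in sham libraries (0 to 8 each). It held 32.6% and 2.72% of the MCAO/R + WT microglia and 28.8%, 55.9% and 21.2% of the MCAO/R + Lrg1-/- microglia, where replicate 1 had only 250 cells named microglia. Of the 10 microglial markers, 7 were detected in it at the naming limits, with a mean log2 fold of 1.45. Its P2ry12 level was 88.6 and 93.5 CPM in MCAO/R + WT and 140, 90.1 and 104 CPM in MCAO/R + Lrg1-/-. All cells not named microglia had 71.3 CPM together, and the largest microglial cluster had 206 to 447 CPM in the MCAO/R libraries. Another cluster, led by Spp1, carried both microglial and erythroid markers and stayed unnamed. It held 104 cells in sham + WT, 1506 in sham + Lrg1-/-, 295 in MCAO/R + WT and 4426 in MCAO/R + Lrg1-/-, and 39.8% of its 6331 cells came from replicate 1 of MCAO/R + Lrg1-/-, so that the shares above leave out most cells of Spp1-rich clusters in that library and in the sham + Lrg1-/- group. As a description, Isg15 in the Spp1-high cluster was 319 CPM and 189 CPM in MCAO/R + WT, against 118 CPM and 119 CPM in the largest microglial cluster, and 199, 77.6 and 82.3 CPM in MCAO/R + Lrg1-/-, against 21.5, 19.7 and 15.8 CPM. Ifnb1 there was 149 CPM and 131 CPM in MCAO/R + WT and 8.26, 6.45 and 5.44 CPM in MCAO/R + Lrg1-/-. The 6 monocyte markers summed to 6.19 to 8.03 CPM in sham + WT microglia, 35.2 and 7.62 CPM in MCAO/R + WT and 24.9 to 51.3 CPM in MCAO/R + Lrg1-/-, with 6.59 to 13.7 CPM in sham + Lrg1-/-, and their part was not tested. With the Spp1-high cluster left out of microglia, an alternative chosen after seeing the data, 7 members were higher and 13 lower in MCAO/R + WT than in sham + WT, where 10.8% and 10.9% of all genes were, and 5 higher and 4 lower in MCAO/R + Lrg1-/- than in sham + Lrg1-/-, where 15.9% and 13.2% were. Isg15 was then at -0.08 in the latter and not called. Between genotypes after MCAO/R, 2 members were then higher and 16 lower, where 11.1% and 13.8% of all genes were.

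In WT endothelial cells most members fell after MCAO/R. Endothelial cells lay in 2 clusters, 1 of which (number 4) held 5713 sham + WT and 1888 sham + Lrg1-/- cells but 71 MCAO/R + WT and 77 MCAO/R + Lrg1-/- cells, while the other (number 3) held 551, 283, 4594 and 3858, so that sham and MCAO/R cells were compared across clusters. Of 40 members tested, 24 were called lower and 1 higher, where 10.7% of all genes were lower and 9.72% higher, and the members' median log2 fold change was -0.85, against 0.02 over all genes. Oas3 did not pass the filter on low counts. Without Ifnb1 and Ifih1, which were selected on their microglial levels, 22 of 38 were lower. Both receptor chains, 10 of 17 effectors, 5 of 11 other genes and 6 of 9 sensors and transducers, Ifih1 among them, were lower. The guanylate-binding protein Gbp3 was 101, 89.2 and 102 CPM in sham + WT and 20.6 and 15.9 CPM in MCAO/R + WT, 5.30-fold lower (-2.41 ± 0.38, SE, edgeR adjusted p = 6.9e-04), and the mitochondrial nucleotide kinase Cmpk2 was 36.3, 36.8 and 35.0 CPM and 9.13 and 7.40 CPM, 4.34-fold lower (-2.12 ± 0.26, adjusted p = 9.6e-05). Isg15 was 169, 185 and 196 CPM and 100.2 and 61.0 CPM (-1.18 ± 0.35, adjusted p = 0.029). Both MCAO/R + WT mice were below every sham + WT mouse for these genes, and replicate 2 was the lower one.

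Oas2 (-1.83 ± 0.44), Gbp2 (-1.78 ± 0.34), Rsad2 (-1.70 ± 0.36), Bst2 (-0.90 ± 0.25), Stat2 (-0.60 ± 0.14) and Irf9 (-0.58 ± 0.16) fell as well. Ifnb1 was 17.3, 17.8 and 13.4 CPM in sham + WT and 7.85 and 2.58 CPM in MCAO/R + WT, given without a test. Ifitm3 was 1083 to 1095 CPM in sham + WT and 1525 and 996 CPM in MCAO/R + WT (0.21 ± 0.21), and Irf7 (-0.68 ± 0.43, adjusted p = 0.29), Ifit3 (-0.84 ± 0.44) and Ifi27l2a (-1.14 ± 0.40, adjusted p = 0.06) were not called. The 1 member called higher was Ifi204, from 1.26 to 1.79 CPM to 8.39 and 2.58 CPM (1.87 ± 0.40, adjusted p = 0.0049). The call of Isg15 was lost without replicate 2 or 3 of sham + WT. Leaving out either MCAO/R + WT mouse leaves 1 in its group, so that no call or count is read from those fits.

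In Lrg1-/- endothelial cells, 14 of 40 members, or 13 of 38 without Ifnb1 and Ifih1, were called lower and 2 higher after MCAO/R, where 10.3% of all genes were lower and 11.7% higher; the median was -0.46, against -0.0031 over all genes. Gbp3 was 114, 120.0 and 132 CPM in sham and 69.9, 30.3 and 17.3 CPM after MCAO/R (-1.65 ± 0.33, SE, edgeR adjusted p = 0.0037), and Cmpk2 was 36.7, 42.0 and 30.1 CPM and 21.2, 13.1 and 8.16 CPM (-1.38 ± 0.23, adjusted p = 0.0015). For both genes the groups did not overlap, and replicate 1 of MCAO/R + Lrg1-/- was the nearest to the sham mice. Gbp2 (-1.07 ± 0.29), Xaf1 (-1.01 ± 0.22), a pro-apoptotic factor, Rsad2 (-0.94 ± 0.32), Stat2 (-0.76 ± 0.13) and Irf9 (-0.49 ± 0.15) fell too.

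Ifitm3 was 1217, 1228 and 1522 CPM in sham + Lrg1-/- and 1865, 2776 and 1737 CPM in MCAO/R + Lrg1-/- endothelial cells and rose by 0.69 ± 0.19 (log2, SE, adjusted p = 0.02), and Ifi204 rose by 1.46 ± 0.42. Isg15 was 180.5, 226 and 179 CPM and 198, 106 and 62.4 CPM, so that replicate 1 after MCAO/R lay within the sham range, and was not called (-0.68 ± 0.31, adjusted p = 0.13). Bst2 (-0.13 ± 0.22), Irf7 (-0.59 ± 0.39), Ifit3 (0.02 ± 0.40) and Ifi27l2a (-0.43 ± 0.36) were not called. Ifnb1 was at 0 to 0.694 CPM in the 6 libraries. Without replicate 1 of MCAO/R + Lrg1-/-, 25 members were lower and 2 higher. Without its replicate 2, 9 were lower and 0 higher, and without replicate 2 of sham + Lrg1-/- 8 were lower and 0 higher. The shares of all genes called in these fits are not given.

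The sham groups differed little in endothelial cells. Of 40 members, 3 were called lower in sham + Lrg1-/- (Herc6, and Ifnb1 and Ifih1, which were selected on this genotype difference in microglia) and 1 higher (Isg20, an RNA exonuclease), where all genes had 9.85% lower and 8.29% higher, so that the members' counts did not exceed those of genes at large. Without the 2 selected genes, 1 of 38 was lower and 1 higher. The members' median was 0.02 and that of all genes 0.01. Herc6 was 57.8, 66.1 and 61.9 CPM in sham + WT and 42.9, 49.5 and 34.3 CPM in sham + Lrg1-/- (-0.54 ± 0.15, SE, edgeR adjusted p = 0.025), and Isg20 was 11.5, 11.7 and 12.9 CPM and 17.3, 18.1 and 19.5 CPM (0.59 ± 0.17, adjusted p = 0.03). Isg15, 16.7-fold lower in microglia, was 169, 185 and 196 CPM and 180.5, 226 and 179 CPM in endothelial cells (0.09 ± 0.30). Ifnar1 (-0.25 ± 0.10), Ifnar2 (-0.13 ± 0.08), Irf7 (0.04 ± 0.38), Irf9 (-0.06 ± 0.15), Stat2 (-0.04 ± 0.13), Ifit3 (0.11 ± 0.39), Ifitm3 (0.28 ± 0.19), Bst2 (0.23 ± 0.22) and Ifi27l2a (0.66 ± 0.35) were not called. The count of 4 fell to 1 or 2 in 5 of the 11 fits that left out a library, namely each sham + WT replicate and replicates 1 and 5 of sham + Lrg1-/-. The shares of all genes called in those fits are not given.

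After MCAO/R, 9 of 40 endothelial members were called higher in Lrg1-/- than in WT and 2 lower (the selected genes Ifnb1 and Ifih1; 9 higher and 0 lower of 38 without them), where 13.8% of all genes were higher and 13.5% lower; the median was 0.56, against 0.01 over all genes. Oas2 was 1.72 and 1.58 CPM in MCAO/R + WT and 10.6, 4.70 and 1.84 CPM in MCAO/R + Lrg1-/- (1.76 ± 0.46, SE, edgeR adjusted p = 0.012), and Gbp2 was 23.6 and 17.0 CPM and 77.7, 38.0 and 24.5 CPM (1.18 ± 0.34, adjusted p = 0.02). Ifitm3 was 1525 and 996 CPM and 1865, 2776 and 1737 CPM (0.75 ± 0.22, adjusted p = 0.02). All 3 Lrg1-/- mice lay above both WT mice for these genes, with replicate 5 nearest to WT.

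Bst2 was 117 and 70.6 CPM in MCAO/R + WT and 219, 224 and 116 CPM in MCAO/R + Lrg1-/- (0.999 ± 0.25, adjusted p = 0.011), with replicate 5 of the knockout just below replicate 1 of WT. Ifi27l2a (1.37 ± 0.41), Ifi44 (1.19 ± 0.36), Gbp3 (1.08 ± 0.37), Cmpk2 (0.76 ± 0.26) and Isg20 (0.66 ± 0.19) were the others called. Ifnar2 had an adjusted p of 0.019 but a fold change under the limit (0.32 ± 0.09). Isg15 (0.60 ± 0.35, adjusted p = 0.22), Ifit3 (0.98 ± 0.45), Irf7 (0.13 ± 0.43), Irf9 (0.03 ± 0.16), Stat2 (-0.20 ± 0.15) and Ifnar1 (-0.14 ± 0.11) were not called. Without replicate 5 of MCAO/R + Lrg1-/-, 17 members were higher and 1 lower, where the shares of all genes are not given. The calls rest on 2 WT mice, of which replicate 2 was the lower for Oas2, Gbp2, Ifitm3 and Bst2. Leaving out either leaves 1 in the group, so that no count is read from those fits. Haemoglobin genes summed to 405 to 1668 CPM in WT and 17838 to 25413 CPM in Lrg1-/- endothelial cells, choroid plexus genes to 328 to 1064 CPM and 3028 to 12755 CPM, and their part was not tested. The comparisons share their groups, so the 4 counts of a cell type are not independent of each other.

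**Figure D4:**
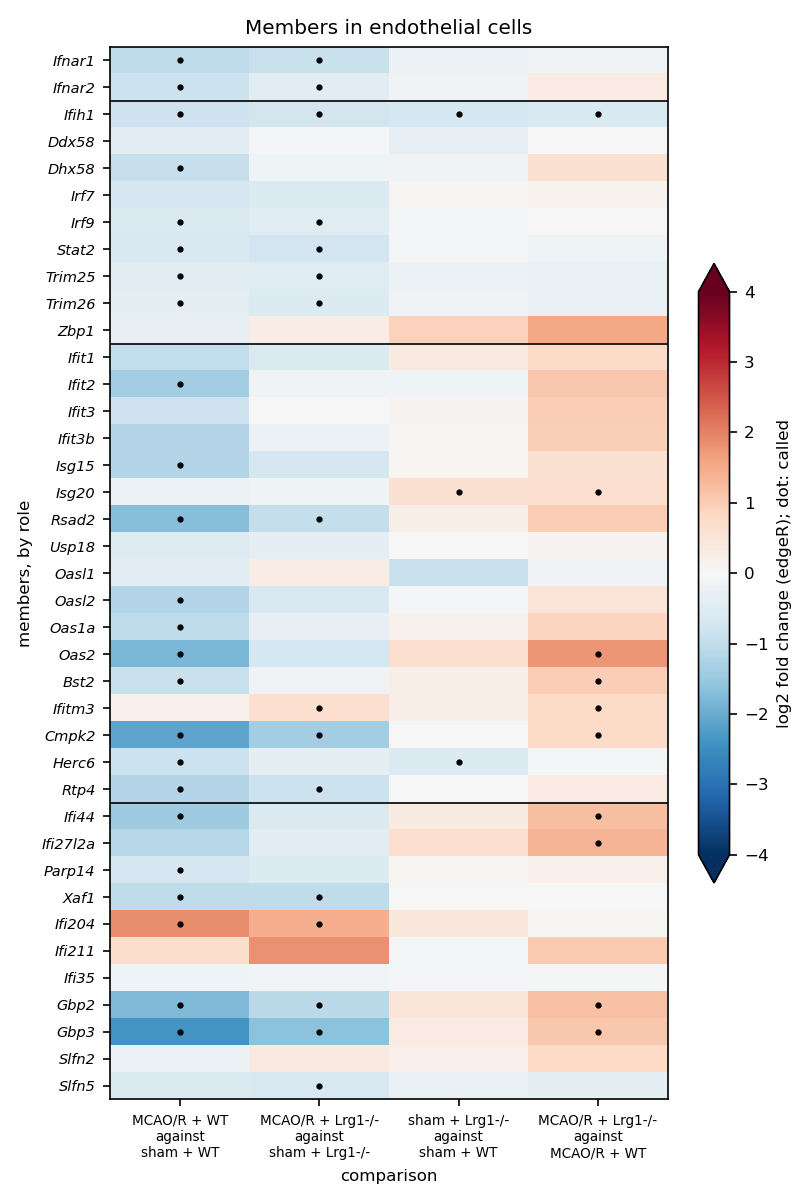
Log2 fold change of each member except Ifnb1, which is left out, in endothelial cells in the 4 comparisons (columns), by edgeR, drawn as for microglia. Of 40 members tested, Ifnb1 among them, 24 and 14 were called lower after MCAO/R in WT and Lrg1-/-. Without the selected genes Ifnb1 and Ifih1 these counts were 22 and 13. After MCAO/R, 9 were called higher in Lrg1-/- than in WT.

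In oligodendrocytes, 13 of 39 members were called higher and 2 lower (Ifnb1 and Ifih1) in MCAO/R + WT than in sham + WT, where 11.7% of all genes were higher and 12.2% lower. Without these 2 and the members for which no sham + WT library passed the filter, 12 were higher and 0 lower. Ifit3 was 1.31, 2.26 and 2.07 CPM in sham + WT and 64.8 and 0.892 CPM in MCAO/R + WT (4.10 ± 0.999, SE, edgeR adjusted p = 0.0082), and Usp18, the protease that removes ISG15 and damps receptor signalling, was 0.559, 1.10 and 0.995 CPM and 24.5 and 0.919 CPM (3.795 ± 0.90, adjusted p = 0.0069). Replicate 1 of MCAO/R + WT was high and replicate 2 was within or below the sham range, and without replicate 1 the value of Ifit3 turned to -1.09.

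In pericytes, the contractile cells of capillaries, 15 of 40 members were called higher in sham + Lrg1-/- than in sham + WT and 2 lower, which were Ifnb1 and Ifih1, where 7.11% of all genes were higher and 6.99% lower, with a median of 0.95. Oas2 was 1.52, 1.21 and 0.754 CPM in sham + WT and 8.90, 11.6 and 8.05 CPM in sham + Lrg1-/-, and Zbp1 was 1.90, 0.805 and 2.64 CPM and 17.8, 13.03 and 4.02 CPM. No sham + WT library passed the filter on low counts for either, and the sums held at most 14 UMIs, so that nothing is read from their tests. Without these 2 genes and without Ifnb1 and Ifih1, 13 members were higher and 0 lower. Of 2 genes chosen after their values were seen, Ifitm3 was 874, 881 and 885 CPM and 1937, 1554 and 2152 CPM (1.09 ± 0.26, SE, edgeR adjusted p = 0.018), and Bst2 was 79.7, 78.9 and 79.9 CPM and 184, 204 and 193 CPM (1.29 ± 0.39, adjusted p = 0.045). The sham + Lrg1-/- sums came from 83, 76 and 35 cells. Ifnb1 was 45.5, 40.2 and 19.2 CPM in sham + WT and at 0 UMIs in all 3 sham + Lrg1-/- libraries.

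In choroid plexus epithelial cells, which make cerebrospinal fluid, 8 of 39 members were called higher and 7 lower, Ifnb1 and Ifih1 among the latter, in sham + Lrg1-/-, where 10% of all genes were higher and 9.73% lower. Isg20 was 0.98, 0 and 1.04 CPM in sham + WT and 6.34, 12.2 and 29.4 CPM in sham + Lrg1-/-, and Zbp1 was 0, 0 and 0.521 CPM and 2.16, 3.03 and 8.72 CPM. Both had almost no UMIs in sham + WT and passed the filter on low counts through the groups where they are high, so that nothing is read from their test. Without them and the 2 selected genes, 6 members were higher and 5 lower. The sham + WT libraries held 152 to 245 of these cells and the sham + Lrg1-/- libraries 542 to 3503.

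Border-associated macrophages, which line vessels and meninges, had Ifi27l2a at 274, 345 and 311 CPM in sham + WT and 2581 and 429.6 CPM in MCAO/R + WT, and 278, 373 and 501 CPM in sham + Lrg1-/- and 1166, 2844 and 1931 CPM in MCAO/R + Lrg1-/-. On the log2 scale the changes were 2.28 ± 0.50 (edgeR adjusted p = 0.0088) and 2.39 ± 0.48 (adjusted p = 0.0069). All 5 MCAO/R mice were above the sham mice of their genotype. Cmpk2 was 2.63 and 1.12 CPM in MCAO/R + WT and 15.7, 7.42 and 4.29 CPM in MCAO/R + Lrg1-/-. No WT library there passed the filter on low counts for Cmpk2, so that nothing is read from its test.

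Monocytes and monocyte-derived macrophages had Ifih1 at 288, 263 and 330.1 CPM in sham + WT and 63.3, 34.7 and 22.7 CPM in sham + Lrg1-/-, given without a test as above, and Oas3 at 7.53, 5.42 and 9.23 CPM and 25.7, 44.1 and 27.3 CPM, where no sham + WT library passed the filter. In vascular smooth muscle cells Slfn2 was 3.41, 3.73 and 3.26 CPM in sham + Lrg1-/- and 9.43, 15.1 and 25.3 CPM in MCAO/R + Lrg1-/- (2.33 ± 0.36, adjusted p = 9.9e-04). Isg20 there was 2.06, 2.16 and 2.24 CPM in sham + WT and 9.07 and 10.7 CPM in MCAO/R + WT, where no sham + WT library passed the filter, so that nothing is read from the tests of Oas3 and Isg20. For Slfn2 the groups did not overlap, and the share of all genes without overlap is not given.

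In ciliated ependymal cells, which line the ventricles, Ifi27l2a was 12.5 and 1.05 CPM in MCAO/R + WT and 215, 41.1 and 85.2 CPM in MCAO/R + Lrg1-/- (3.93 ± 0.82, SE, edgeR adjusted p = 0.022), and Slfn2 was 7.86 and 2.63 CPM and 51.7, 20.4 and 96.1 CPM (3.39 ± 0.69, adjusted p = 0.022). In neurons and neuroblasts Oas1a was 0.331 and 0.107 CPM and 15.1, 2.04 and 6.14 CPM in the same comparison, and since it passed the filter on low counts through the group where it is high, nothing is read from its test. Ifi27l2a in neurons and neuroblasts was 5.21, 6.89 and 3.81 CPM in sham + WT and 22.7, 27.2 and 337 CPM in sham + Lrg1-/- (4.29 ± 1.12, adjusted p = 0.041), where replicate 5 of the knockout, with 32 cells, stood far above the rest. Oasl1 in astrocytes was 10.6, 8.76 and 21.4 CPM in sham + WT and at 0 UMIs in all 3 sham + Lrg1-/- libraries, which held 82, 61 and 81 astrocytes. Microglial markers were at a median of 10.7% of their microglial level in sham + WT astrocytes, and the part of microglial RNA in this value was not tested.

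Over the 9 other cell types together, 31 of 342 tests of a member were called after MCAO/R in WT (21 higher, 10 lower; 6.48% of all genes) and 16 of 342 in Lrg1-/- (12 higher, 4 lower; 6.83%). Between genotypes 61 of 342 were called in sham (33 higher, 28 lower, with 8.67% of all genes) and 42 of 377 after MCAO/R (21 higher, 21 lower, with 13.4%), the latter with neutrophils added. In neutrophils edgeR called none of 35 members and only 0.0958% of all genes, so that nothing is read from the absence of calls. There 3 members had an unadjusted p under 0.05, Ifnb1 and Ifih1 among them. The shares after MCAO/R, in Lrg1-/- and between genotypes, were thus below those of all genes. Ifnb1 and Ifih1, selected on the genotype difference in microglia, made up 18 of the 28 lower calls in sham, 13 of the 21 after MCAO/R and 8 of the 10 in WT. Without these 2 genes 43 of 324 tests were called between genotypes in sham, 10 of them lower, 29 of 357 after MCAO/R, 8 of them lower, and 23 of 324 after MCAO/R in WT, 2 of them lower. These counts still include members that passed the filter on low counts only through the group where they are high. Nothing is read from the tests of those members, so that the counts, in WT after MCAO/R among them, are upper limits. Leaving out 1 library moved the count after MCAO/R in Lrg1-/- between 6 and 34 and that between genotypes in sham between 29 and 71. The shares of all genes called in those fits are not given. The other 2 counts compare MCAO/R + WT, where leaving out either mouse leaves 1, so that no range is read for them.

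**Figure D5:**
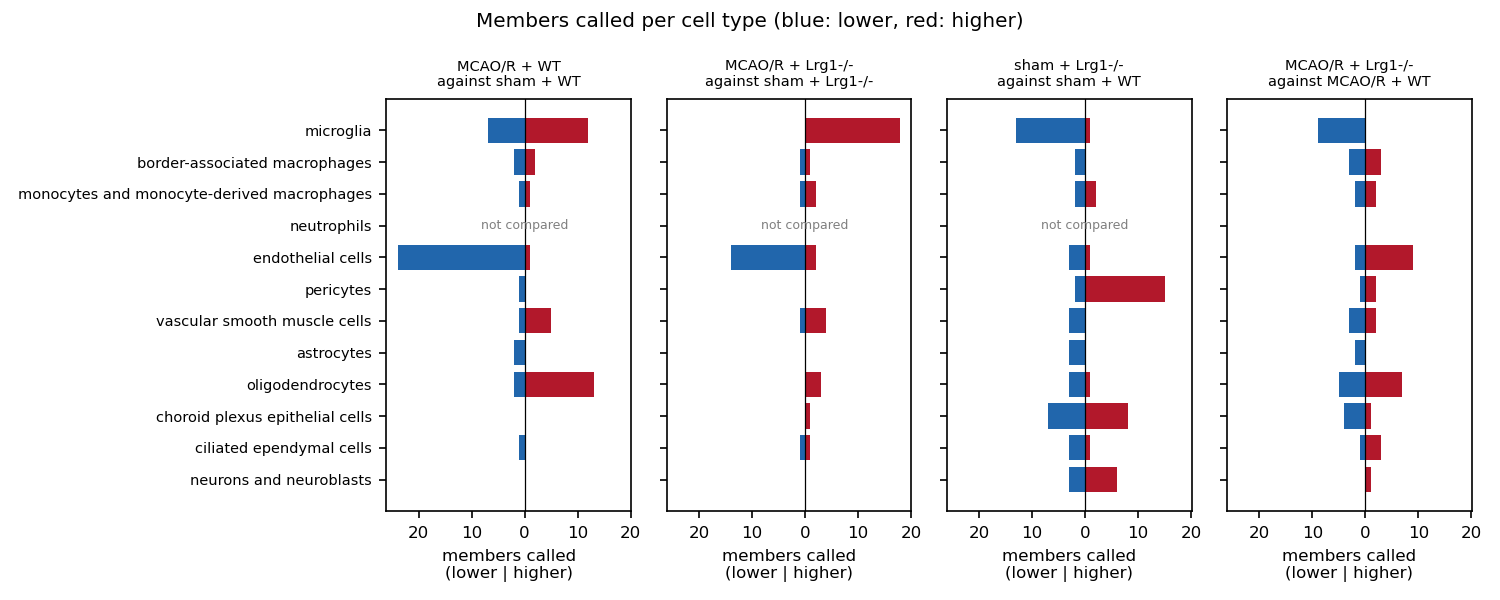
Number of members called higher (red) and lower (blue) by edgeR in each cell type and comparison; neutrophils were compared between genotypes after MCAO/R alone, and outside microglia the counts include the selected genes Ifnb1 and Ifih1. Some counts also include members that passed the filter on low counts only through the group where they are high, from whose tests nothing is read. Endothelial cells have 24 lower members after MCAO/R in WT and microglia have 18 higher in Lrg1-/-.

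The share of microglia with at least 1 UMI of the 18 effectors, with each cell thinned to 1000 UMIs, was 55.8 to 59.6% in sham + WT and 15.2 to 21.1% in sham + Lrg1-/-. It was 49.7% and 31.1% in MCAO/R + WT and 29.7 to 43.9% in MCAO/R + Lrg1-/-. In oligodendrocytes the same share was 7.99 to 12.1%, 11.9 to 13.02%, 19.3% and 6.40%, and 21.6 to 36.6% in these groups. Unthinned, the microglial shares were 90.5 to 95.1% in sham + WT and 57.6 to 73.1% in sham + Lrg1-/-. The summed level of the effectors in microglia was 1285 to 1530 CPM in sham + WT, 216 to 284 CPM in sham + Lrg1-/-, 1819 and 535 CPM in MCAO/R + WT and 524 to 865 CPM in MCAO/R + Lrg1-/-, so that sham + Lrg1-/- lay below every other library.

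Endothelial cells had no such gap between the sham groups. Their summed effector level was 1986 to 2113 CPM in sham + WT and 2189 to 2475 CPM in sham + Lrg1-/-, and the thinned share of cells with an effector UMI was 76.2 to 76.5% and 74.2 to 82.0%. After MCAO/R the summed level was 2078 and 1357 CPM in WT and 2160 to 3469 CPM in Lrg1-/-, and Ifitm3 made up most of it.

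The pathway genes outside the list, 64 of them tested in microglia and 63 in endothelial cells, were counted in the same way; those named were chosen after their values were seen. In sham + Lrg1-/- microglia 17 were lower and 3 higher, where 12.3% and 10.7% of all genes were. Among the 17 were the chemokine Cxcl10 (-4.32 on the log2 scale), the helicase Ddx60 (-1.62) and Samd9l (-1.96). Microglial counts were 11 higher and 14 lower after MCAO/R in WT (11.7% and 9.84% of all genes), 13 and 8 in Lrg1-/- (21.1% and 14.9%, so that the list did not exceed genes at large), and 4 and 12 between genotypes after MCAO/R (10.3% and 10.2%). In WT endothelial cells 26 were lower and 9 higher after MCAO/R (10.7% and 9.72% of all genes), with Tnfsf10 (TRAIL) at -2.07, and Ifitm1, at 4.07, among those higher. Endothelial counts were 9 higher and 19 lower after MCAO/R in Lrg1-/- (11.7% and 10.3%), 5 and 1 between genotypes in sham (8.29% and 9.85%), and 13 and 4 after MCAO/R (13.8% and 13.5%).

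Of 25 interferon-gamma targets tested, which overlap in function with the members, 14 were lower and 0 higher in WT endothelial cells after MCAO/R, with a median of -1.17, where 10.7% and 9.72% of all genes were. There were 11 lower and 0 higher in Lrg1-/- (median -0.57, with 10.3% and 11.7% of all genes), and 12 higher and 0 lower in Lrg1-/- than in WT after MCAO/R (median 0.80, with 13.8% and 13.5% of all genes). The GTPases Gbp6 (-2.55 in WT and -1.90 in Lrg1-/-) and Tgtp2 (-2.66 and -2.34) fell in both genotypes. In sham, 2 were higher and 1 lower between genotypes in endothelial cells, near or below the 8.29% and 9.85% of all genes. In microglia the counts were 2 higher and 3 lower after MCAO/R in WT, 3 and 1 in Lrg1-/-, 1 and 2 between genotypes in sham, and 3 and 3 after MCAO/R. Of 25 genes, most of these microglial counts are near or below the shares of all genes just given.

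Several members have close copies in the genome, such as Ifit3 and Ifit3b, Oas1a and its neighbours, and Ifi204 and Ifi211, and reads shared by copies could have been split or dropped in counting, which makes the values of each such gene uncertain.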

How the data were processed

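Single-cell suspensions of mouse brain were sequenced in 11 libraries, 1 mouse each, and the authors deposited raw UMI counts per gene and cell; per the labels they were made with Cell Ranger and STAR on mm10. The file headers and the study's methods name different Cell Ranger versions, and whether intronic reads were counted is not given in the sources used here. Samples were grouped by the labels, and p-values measure the spread between these mice.

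Cells with more than 500 genes, more than 1000 UMIs and under 25% mitochondrial UMIs were kept, and the 6% with the highest doublet scores in each library were removed. Counts were log-normalized, reduced to 15 components of 2000 variable genes, joined by 3 neighbours per library and clustered with leidenalg 0.10.2 at resolution 1, in Python 3.11.15. A cluster was named where at least 3 fixed markers had a log2 fold of 1 or more in at least 10% of its cells, the mean log2 fold of that type's markers was at least 1 and led every other type's by at least 1, and no other type had more markers among its 10 leading genes; the other clusters, 30016 cells, were left out. The limit on the mean was lowered after the clusters were seen so that the Spp1-high cluster counted as microglia. UMIs were summed per library and cell type, for at least 20 cells, and tested in 12 cell types with edgeR 4.0.16 (quasi-likelihood, TMM, filterByExpr, one fit over the 4 groups, Benjamini-Hochberg adjustment over all genes). Two-sided tests were used throughout.

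The members, roles and lists were chosen with earlier results of these data known. Named were Ifnb1 and Ifih1, up to 5 members called higher and 5 lower per comparison in microglia and endothelial cells, 10 members named always there (Ifnar1, Ifnar2, Irf7, Irf9, Stat2, Ifit3, Isg15, Ifitm3, Bst2 and Ifi27l2a), and up to 3 called members in each other cell type; further names were chosen after their values were seen. Alternatives were DESeq2 1.42.0, no filter, a replicate block, leaving out each library, keeping doublets, a 10% mitochondrial limit, clustering without haemoglobin, mitochondrial and ribosomal genes, 1000 UMIs per cell, and microglia without the Spp1-high cluster. Depth was 37159497 to 171813031 UMIs per library. In 4 libraries the number of barcodes is round (15500, 9000, 5650 and 8500), and all 4 are Lrg1-/-.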

Additional observations from a re-analysis of the deposited data

Results flagged for a closer look

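For 8 members in microglia the change after MCAO/R differed between genotypes by edgeR's interaction test. The interaction, the log2 fold change in Lrg1-/- minus that in WT, was 4.07 for Ifit1 (adjusted p = 0.0058), 3.69 for Ifit2 (0.015), 2.61 for Isg15 (0.0048), 2.41 for Oasl1 (0.027), 2.21 for Trim26 (0.00044), 1.76 for Herc6 (0.0067), 1.51 for Parp14 (0.0031) and 1.40 for Ddx58 (0.02). All 8 were lower in sham + Lrg1-/- than in sham + WT, so that each interaction includes that difference. Leaving out 1 library moved the number of interaction calls over microglia and endothelial cells. A fit without either MCAO/R + WT mouse leaves 1 in that group, so that no count is read from it.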

How the results depend on the processing

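The genotypes differed in haemoglobin share, depth, barcode numbers and line, which cannot be told apart from the loss of Lrg1, and MCAO/R + WT has only 2 mice. Of the single results named, 67 kept their direction and side of the threshold under every alternative and 86 did not under at least one.

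In a check for pairing by replicate number, 0 of 13 same-numbered pairs correlated above 0.1 in microglia or in endothelial cells. It used deviations from group means, which mirror each other in a group of 2 mice, so that it cannot exclude pairing. Replicate 2 of MCAO/R + WT and replicate 2 of MCAO/R + Lrg1-/- correlated at -0.434 in microglia and -0.474 in endothelial cells. With a replicate block, the members called were 12 in microglia after MCAO/R in WT, 1 in endothelial cells between sham groups, 14 in other cell types after MCAO/R in WT and 35 there between sham groups. Without haemoglobin, mitochondrial and ribosomal genes in clustering, microglia had 7 after MCAO/R in Lrg1-/- and 15 between genotypes after MCAO/R, a setting in which the Spp1-high cluster (3191 cells there) also stayed unnamed and so left microglia. At 1000 UMIs per cell the counts were 10 in microglia after MCAO/R in Lrg1-/-, 1 in endothelial cells between sham groups, and 12, 5, 15 and 13 in other cell types. Without the Spp1-high cluster, chosen after seeing the data, microglia had 9 after MCAO/R in Lrg1-/- and 18 between genotypes after MCAO/R. With no filter, endothelial cells had 20 between genotypes after MCAO/R and other cell types 96, 69, 135 and 122. DESeq2 called 27 in other cell types after MCAO/R in Lrg1-/-. Apart from the setting without the Spp1-high cluster, the shares of all genes called under these alternatives are not given. The cause of these moves was not tested.

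Leaving out 1 library gave 13 to 26, 8 to 24, 11 to 21 and 6 to 24 members in microglia (after MCAO/R in WT and in Lrg1-/-, then between genotypes in sham and after MCAO/R), 12 to 29, 8 to 27, 1 to 6 and 1 to 18 in endothelial cells, 14 to 60, 6 to 34, 29 to 71 and 31 to 65 in other cell types, and 6 to 27 for the interaction.

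Some values changed sign. Leaving out 1 library, the microglial change after MCAO/R in WT ran from -1.47 to 1.40 for Irf7, from -1.83 to 0.82 for Ifit3, from -0.20 to 2.16 for Bst2 and from -1.12 to 2.46 for Ifi27l2a. The microglial difference between genotypes after MCAO/R ran from -1.90 to 1.061 for Irf7, from -0.87 to 2.09 for Ifitm3, from -0.94 to 1.501 for Bst2 and from -1.20 to 2.46 for Ifi27l2a, and the change of Ifit3 in WT oligodendrocytes from -1.09 to 5.09. The sign opposite to that of the full data came each time from leaving out replicate 1 of MCAO/R + WT. Without the Spp1-high cluster, Irf7 turned to -0.93 and Ifit3 to -1.32 in WT microglia after MCAO/R, and Isg15 to -0.082 in Lrg1-/-.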
